A study of Mus musculus with 19 samples.

Results

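Smooth muscle and pericyte genes were followed in the developing mouse ovary through 8 members: Acta2, Tagln, Myh11, Cnn1, Des, Actg2, Pdgfrb and Rgs5. The 8 are part of 18193 genes for which the array holds a probe set annotated to that gene alone, and they were chosen by name. A gene measured by several probe sets was represented by the one with the highest mean over the 18 ovary arrays, and 5 of the 8 members had more than 1, for 16 probe sets in all. Whole ovaries of wild-type, female CD-1 mice, an outbred strain, were taken untreated, on gestation days (gd) 11, 12, 14, 16 and 18 and on postnatal day (pnd) 2, and each stage had 3 arrays. Mating took place within a window of 2 hours. A further array, without replicates, held pooled RNA of 4 male and 4 female whole CD-1 animals at pnd 0.5. The sample labels call the gd11, gd12 and gd14 samples pools of 3 and the later ones not pooled, but the series text gives the ovary pair of 1 animal per sample, with a dam of its own for each sample apart from gd11 samples 18 and 19, which came from the same dam. At gd11, samples 16 and 18 were labelled as gonad with mesonephros, the transient embryonic kidney beside the gonad, and sample 19 as gonad.

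Smooth muscle cells contract through bundles of actin and myosin, and line arteries, veins and hollow organs. Pericytes sit on the outside of capillaries, where endothelial cells recruit them by releasing platelet-derived growth factor (PDGF) B, which binds PDGF receptor beta. Both kinds of cell, together called mural cells, share part of their contractile genes, many of which are switched on by serum response factor (SRF) with its partner myocardin at a DNA element called the CArG box. In the ovary, these genes are known from vessel walls and, after birth, from the outer theca of growing follicles; fibroblasts and the tissue beside the gonad can express several of them.

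Over the 6 stages, Rgs5 moved most among the members: its mean signal fell from 2147 at gd11 to 375 at gd14 and stood at 915 at pnd2. Pdgfrb was lower at pnd2 than at gd12. Myh11 was called higher at gd12 and pnd2 than at gd11, from a low signal. Acta2, the commonest marker of smooth muscle, was called in no comparison. Cnn1 and Des stayed below the level at which a probe set was tested, in every stage mean. The arrays measure RNA of whole tissue, so fewer cells of a type and less RNA per cell cannot be told apart.

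Signals are on the linear scale of the deposited values, on which each array has a trimmed mean of 500. The median of all ovary values, 116.05, served as the threshold for testing: at least 1 stage mean had to exceed it, which 6 of the 8 members and 10 of their 16 probe sets did. Log2 changes are differences of log2(signal + 31), given ± SE of the limma fit, and a probe set was called at an adjusted p under 0.05, adjusted over the 26431 probe sets tested. A test for any change over the 6 stages (limma's F test) called 3 of the 6 tested members, Rgs5, Myh11 and Actg2, beside 62.8% of all tested probe sets. Their adjusted p values were 1.06e-05, 0.0119 and 0.0405, against 0.0502 for Pdgfrb, 0.0622 for Tagln and 0.562 for Acta2. Without gd11 sample 16 the F test called Tagln (0.00616) and Pdgfrb (0.0216) and no longer Myh11 (0.0541), which was also lost without gd11 sample 18 (0.0762). Tagln passed as well without gd12 sample 13, gd14 sample 10, pnd2 sample 2 or pnd2 sample 3, at 0.0347 to 0.0473. Pdgfrb passed as well without gd12 sample 14, gd14 sample 11, gd16 sample 7 (0.0238), gd16 sample 9 or pnd2 sample 3, at 0.0179 to 0.0484. Genes that reach the threshold at few stages had to vary: Actg2 reached it at gd11 alone, where it was highest, and Myh11 at gd12, gd14 and gd16, so their calls are not independent of the threshold and the count of members tested says nothing about them as a group. With no threshold the F test gave 0.0488 for Actg2 and 0.0223 for Myh11.

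**Figure D1:**
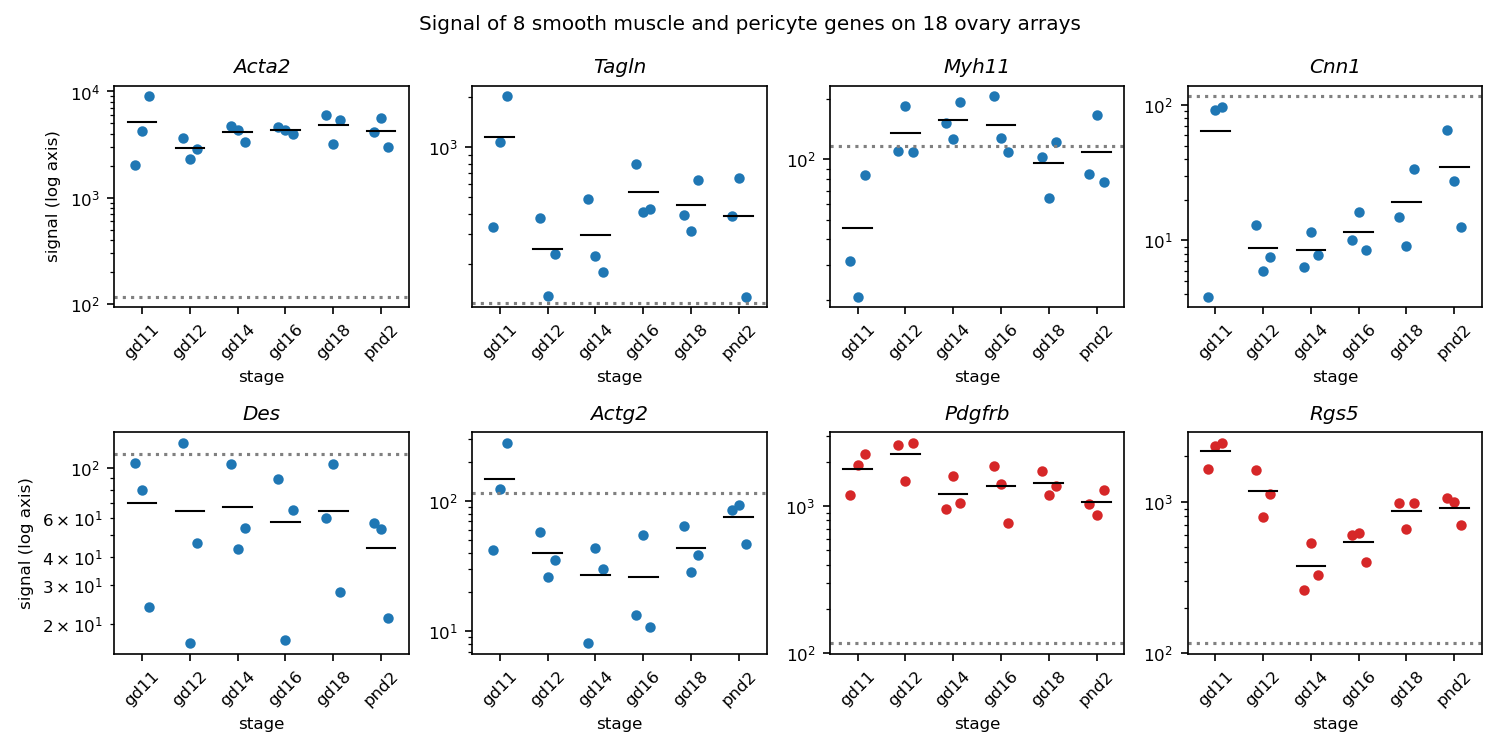
Signal (log axis) of the 8 members on the 18 ovary arrays by stage; each point is an array, black lines are means of 3 arrays, the dotted line marks 116.05, and blue and red part the contractile genes from Pdgfrb and Rgs5. Rgs5 is lowest at gd14 (260.3 to 534.2) and Cnn1 lies below the dotted line on all 18 arrays.

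The median signal of an array was 102.94 to 137.56 on the ovary arrays, and arrays of a stage correlated with each other at a mean r of 0.953 to 0.978. For Gapdh, the signal ratio of 3' to 5' probes, which follows RNA integrity and amplification, was 2.99 to 3.28 at gd11 and 5.07 to 5.41 at pnd2; its part in the results below was not tested. On gd16 sample 7 the female-specific RNA Xist had a signal of 44.79, against 11306 to 18576 on the other ovary arrays, which goes against its label of female. The Y-linked Eif2s3y, at 23.72 on that array, was not above the 26.26 of gd16 sample 8 and far below the 802.73 of the reference of both sexes, so no Y-linked signal was raised there. The array of gd11 sample 16 stood apart in 7 neuronal markers, whose summed signal was 26463 there and 2641 and 3190 on samples 18 and 19. Calls of the members that changed on leaving out either array are given beside them.

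The promoter of Acta2 is shown because the CArG box is the element through which SRF is known to act on this gene, and that of Rgs5 because it is the member that moved most. RefSeq promoters of build GRCm38.p6 were at hand for 4 of the 8 members, Acta2, Cnn1, Des and Rgs5. Those of Acta2 and Rgs5 are printed 5′ to 3′ over the 250 bases before the start that the promoter entry uses, with matches to the CArG box in capitals. For Acta2 the window is chr19:34255374-34255623 on the minus strand and for Rgs5 chr1:169655251-169655500 on the plus strand. The RefSeq span of the Acta2 gene reaches 34255585, so most of its window and both matches given below lie inside that span. Distances are counted from the start of the promoter entry, which can differ from that of the gene.
Acta2: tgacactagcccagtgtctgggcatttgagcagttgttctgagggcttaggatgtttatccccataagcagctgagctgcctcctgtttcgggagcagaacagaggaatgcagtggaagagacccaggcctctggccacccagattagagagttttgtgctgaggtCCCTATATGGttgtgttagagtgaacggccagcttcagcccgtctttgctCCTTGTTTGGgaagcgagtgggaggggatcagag
Rgs5: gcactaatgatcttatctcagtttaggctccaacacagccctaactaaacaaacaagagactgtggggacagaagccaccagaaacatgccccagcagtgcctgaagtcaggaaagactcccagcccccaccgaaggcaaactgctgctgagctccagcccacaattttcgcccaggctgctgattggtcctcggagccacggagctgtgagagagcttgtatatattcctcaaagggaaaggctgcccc
The box was searched on both strands as 2 C, 6 bases of A or T and 2 G, with up to 1 mismatch among the 6. Acta2 held 2 matches, both with 1 mismatch: CCCTATATGG, whose first base lies 84 bases before the start, and CCTTGTTTGG, 34 bases before it. Rgs5, Cnn1 and Des held none in these windows. Among 32851 RefSeq windows of the same length, 8.59% held such a match and 1.47% a match without mismatch. A match is a string of letters and was not tested for binding here.

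Acta2 encodes the alpha actin of smooth muscle, the main thin-filament protein of these cells. Its probe set 1416454_s_at gave a signal of 2014, 4288 and 9055 on gd11 samples 16, 18 and 19. At gd12 the signals were 3662, 2303 and 2859, and at gd14 they were 4695, 4362 and 3319.6. They were 4617, 4319 and 3949.8 at gd16, 5956, 3180.2 and 5381 at gd18, and 4197, 5641 and 2989.9 at pnd2. The stages overlapped throughout, and the gd11 arrays alone held both the lowest and the highest of the 18 values. From gd12 to gd14 the log2 change was 0.49 ± 0.37, and from gd11 to pnd2 it was -0.05 ± 0.37, with a 95% interval of -0.82 to 0.72. The suffix of this probe set marks probes that other transcripts, such as those of related actins, may share. The other Acta2 probe sets, 1456658_at and 1444105_at, reached at most 35.36 and 22.02 on any ovary array and were not tested.

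Actg2, the gamma actin of gut and other visceral smooth muscle, was measured by probe set 1422340_a_at. It gave 42.07, 123.2 and 282.7 on gd11 samples 16, 18 and 19, and these last 2 were the only arrays above the threshold of 116.05. The gd12 signals were 58.18, 26.16 and 35.40, the gd14 signals 8.08, 43.41 and 30.06, and the gd16 signals 13.32, 54.64 and 10.81. Later arrays gave 64.72, 28.41 and 38.91 at gd18 and 85.60, 93.31 and 46.80 at pnd2. Sample 16 overlapped with the gd12 arrays, and the pnd2 arrays all lay above those of gd14. The change from gd11 to gd12 was -1.13 ± 0.44 (adjusted p = 0.168) and was not called. Without gd11 sample 16 it became -1.66 with an adjusted p of 0.0413, and the change from gd11 to pnd2 became -1.08 (0.0473) from -0.55 ± 0.44 (0.338). Averaging gd11 samples 18 and 19, which share a dam, took the F test of Actg2 to 0.118. Its call was lost on leaving out any 1 of 11 arrays, with adjusted p from 0.0507 to 0.151, and those 11 were gd11 samples 18 and 19, gd12 samples 14 and 15, gd14 samples 10 and 12, gd16 samples 7 and 9, gd18 sample 6 and pnd2 samples 1 and 2.

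Myh11, the smooth muscle myosin heavy chain and the most specific of the contractile markers, was measured by 1448962_at. On gd11 samples 16, 18 and 19 it gave 31.43, 20.74 and 84.06. The gd12 arrays gave 109.8, 184.6 and 108.6, all above gd11, and the gd14 arrays 151, 125.6 and 191.6. At gd16 the signals were 206.1, 127.4 and 108.8, at gd18 they were 102.6, 64.42 and 122.2, and at pnd2 they were 84.31, 165.2 and 77.12. Only 8 of the 18 arrays were above 116.05, so these are changes near the lower end of what was tested, and with no threshold neither of the calls that follow was kept (0.0831 and 0.0530). The rise from gd11 to gd12 was 1.17 ± 0.32 (limma, adjusted p = 0.0467), and that from gd11 to pnd2 was 0.91 ± 0.32 (0.0305), where pnd2 overlapped with gd11. A second probe set, 1418122_at, was at most 46.02 on the ovary arrays and was not tested; its gd12 arrays also all lay above those of gd11, with means of 27.67 and 5.37.

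Neither call of Myh11 was stable when single arrays were left out. The first was kept in 10 of the 29 alternative settings in which Myh11 was tested and lost on leaving out any 1 of 12 arrays (gd11 samples 16 and 18, all of gd12, all of gd14, gd16 sample 8, gd18 samples 4 and 6, pnd2 sample 1), with adjusted p from 0.0518 to 0.229. The arrays of gd14 and later among these are not part of the comparison. Without any 1 of them the change stayed at 1.17 and the adjusted p was 0.0518 to 0.0573, just above the cutoff. The second call was lost without gd11 sample 16 (0.0913), gd11 sample 18 (0.144) or pnd2 sample 2 (0.159). Against gd11 sample 19 alone, the array labelled as gonad, the change to gd12 was 0.49 and that to pnd2 0.23.

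Tagln encodes transgelin, or SM22, a small protein that binds actin filaments in smooth muscle. Probe set 1423505_at gave 332.6, 1075 and 2038 on gd11 samples 16, 18 and 19. The signals were 376, 128.2 and 228.5 at gd12 and 488.5, 223.8 and 178 at gd14, and thus overlapped with sample 16 but not with samples 18 and 19. At gd16 they were 791.5, 411.3 and 426.7, at gd18 they were 392.7, 316.4 and 638, and at pnd2 they were 386.5, 654.9 and 126.1. None of the 15 later arrays reached the signals of gd11 samples 18 and 19. The change from gd11 to gd12 was -1.88 ± 0.56 with an adjusted p of 0.0661, and that from gd11 to pnd2 was -1.40 ± 0.56 (0.0519), so that neither was called. Both passed without gd11 sample 16, at -2.56 (0.0149) and -2.09 (0.0045). Without pnd2 sample 3 the first passed too, at 0.0422, as did the second without gd12 sample 14, gd14 sample 10 or pnd2 sample 2, at 0.0494, 0.0479 and 0.0193.

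Cnn1 encodes calponin, which binds actin and damps the myosin motor. Its probe set 1417917_at gave 3.83 on gd11 sample 16, and 91.08 and 96.05 on samples 18 and 19. The gd12 arrays ranged from 5.93 to 13.05, those of gd14 from 6.32 to 11.61 and those of gd16 from 8.49 to 16.34. The gd18 arrays ranged from 9.17 to 33.53 and the pnd2 arrays from 12.61 to 65.23. The pnd2 arrays all lay above those of gd14, and the gd11 arrays held the lowest and the highest values of all. Cnn1 was below 116.05 on all 18 arrays and was not tested.

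Des encodes desmin, the intermediate filament of all muscle types. Probe set 1426731_at gave between 23.82 and 105 at gd11, between 16.35 and 130.3 at gd12 and between 43.29 and 104.3 at gd14. It gave between 16.95 and 89.65 at gd16, between 27.74 and 104.8 at gd18 and between 21.29 and 56.95 at pnd2. Every stage overlapped with the next in the order of the means. A single array, gd12 sample 13, was above the threshold, and the second probe set, 1426732_at, was at most 96.38, so desmin was not tested.

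Pdgfrb is the receptor through which PDGF-B acts on pericytes, and it is also found on other mesenchymal cells. Its probe set 1436970_a_at gave 1191, 1903 and 2251 on gd11 samples 16, 18 and 19 and 2613, 1480.3 and 2705 on gd12 samples 13, 14 and 15. The gd14 signals were 952.5, 1594 and 1052, those of gd16 1886, 1421 and 771.6, those of gd18 1728, 1183 and 1379, and those of pnd2 1032, 874.2 and 1279.8. All pnd2 arrays lay below all gd12 arrays, while neighbours in the order of the stage means overlapped. Pdgfrb fell from gd12 to pnd2 by 1.04 ± 0.30 on the log2 scale, which is 2.05-fold (limma, adjusted p = 0.0118), the single member called among 6, beside 36.8% of all tested probe sets. The call was lost without gd12 sample 13 (0.0532), gd12 sample 15 (0.0575) or pnd2 sample 2 (0.0515).

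Between gd12 and gd14 Pdgfrb changed by -0.89 ± 0.30 and missed the threshold, at an adjusted p of 0.0532. The second probe set, 1417148_at, was called in this comparison at -0.91 ± 0.31 (0.0495), with stage means of 227.9 at gd12 and 114.1 at gd14 and no overlap of the arrays. The main probe set passed on leaving out gd11 sample 16, gd12 sample 14, gd14 sample 11, gd16 sample 7 or gd16 sample 9, with adjusted p from 0.0173 to 0.0400. From gd12 to pnd2 the second probe set changed by -0.50 ± 0.31 (0.216), which was not called.

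Rgs5 encodes a regulator of G-protein signalling that shortens the response to constricting signals and is widely used to mark pericytes. Probe set 1417466_at gave 1638, 2346 and 2455 on gd11 samples 16, 18 and 19, and 1609, 790.5 and 1119.8 at gd12. The gd14 arrays gave 260.3, 534.2 and 330.2. All gd12 arrays lay below all gd11 arrays, and all gd14 arrays below all gd12 arrays. The signals were 601, 617.1 and 397.5 at gd16, 985.7, 660.9 and 973.7 at gd18, and 1059.6, 988.4 and 696.9 at pnd2. All gd18 arrays thus lay above all gd16 arrays, and all pnd2 arrays lay between the gd14 and the gd11 arrays.

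From gd12 to gd14 Rgs5 fell by 1.57 ± 0.28 on the log2 scale, or 2.97-fold (limma, adjusted p = 0.000628). It was the single member called in this comparison, beside 16.5% of all tested probe sets, and the call was kept under all 31 alternative settings, with adjusted p from 0.000268 to 0.00701. Rgs5 was also lower at pnd2 than at gd11, by -1.20 ± 0.28 (adjusted p = 0.0017). With Myh11, it made 2 members called between these ends, 1 in each direction, beside 42.0% of all probe sets. That fall was kept against gd11 sample 19 alone, at -1.42 (0.0130), and without it, at -1.10 (0.0102). The step from gd11 to gd12 was -0.89 ± 0.28 and was not called (0.0768). It passed in 3 of the 31 alternatives, without gd12 sample 13 (-1.14, 0.0342), with median scaling (-1.01, 0.0407) and with array quality weights (-0.91, 0.0427). In that comparison Myh11 was the single member called, beside 4.12%.

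After gd14 the signal of Rgs5 was higher again. The comparison of pnd2 with gd14, added after these signals had been seen, gave 1.26 ± 0.28, or 2.39-fold (adjusted p = 0.0019), beside 29.8% of all tested probe sets called; it is a description of the pattern, since the stage was picked for its low signal. The single steps from gd14 to gd16 (0.52 ± 0.28, adjusted p = 0.198) and from gd16 to gd18 (0.67 ± 0.28, 0.149) were not called. Ordered by mean signal, the stages ran gd14, gd16, gd18, pnd2, gd12 and gd11, and only the neighbours gd16 and gd18, and gd12 and gd11, did not overlap.

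The other 3 probe sets of Rgs5 were all tested. Probe set 1420941_at was called lower at gd14 than at gd12 (-1.40 ± 0.47, adjusted p = 0.0474), with stage means of 592.7, 449.6, 145.4, 123, 287.6 and 319 in order of age. Probe sets 1420940_x_at (-0.83 ± 0.38, 0.154) and 1420942_s_at (-0.98 ± 0.37, 0.0807) changed the same way without passing. All 4 probe sets had their highest mean at gd11, whereas the lowest stood at gd14 for the main one, at gd16 for 1420941_at and 1420942_s_at and at gd18 for 1420940_x_at. For the change from gd11 to pnd2 the 3 gave -0.81 ± 0.47, -0.83 ± 0.38 and -0.53 ± 0.37, none of them called. From gd14 to pnd2, 1420941_at gave 1.03 ± 0.47 (limma, adjusted p = 0.107) and 1420940_x_at 0.27 ± 0.38 (0.647). Probe set 1420942_s_at gave 0.88 ± 0.37 (0.0802), so the later rise was called for the main probe set only.

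**Figure D2:**
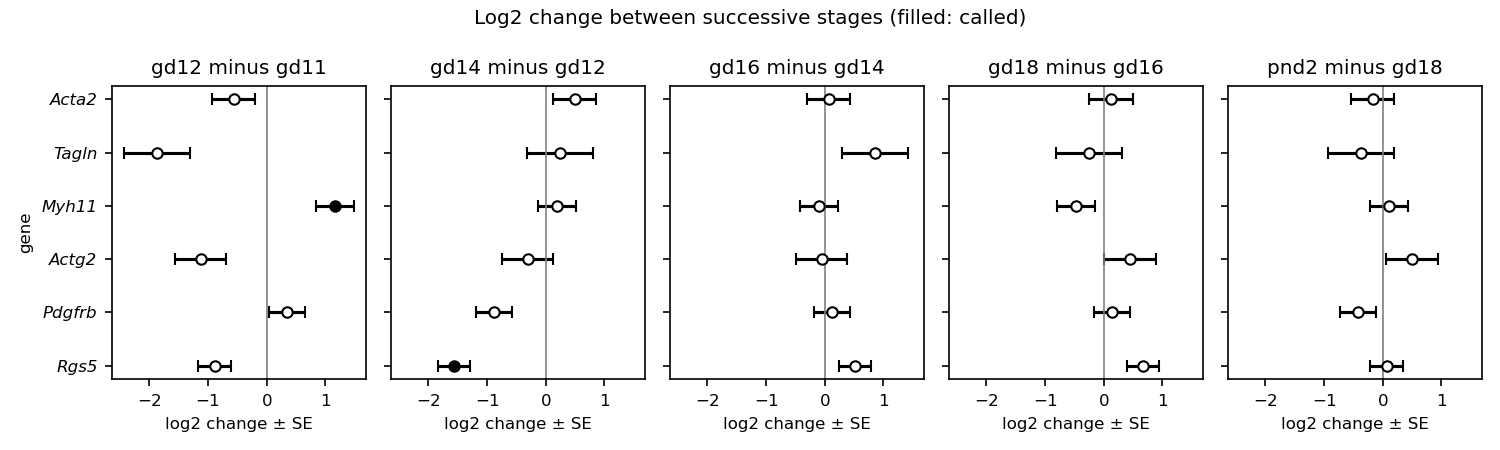
Log2 change of the 6 tested members (rows) between successive stages (panels), with horizontal bars for the SE of the limma fit; filled points were called. Myh11 between gd11 and gd12 (1.17) and Rgs5 between gd12 and gd14 (-1.57) are the filled points, and the 3 later panels hold none.

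No member was called between gd14 and gd16, gd16 and gd18, or gd18 and pnd2 by limma, where 18.8% and 7.58% of all tested probe sets were called in the first 2 comparisons, and 6.60% higher and 6.39% lower in the last. At an unadjusted p under 0.05 these 3 comparisons held 0, 1 and 0 members, the 1 being Rgs5 from gd16 to gd18. Tagln changed by 0.86 ± 0.56 from gd14 to gd16, with a 95% interval of -0.31 to 2.04, so the 3 arrays a stage leave changes of several-fold in this gene undecided. The intervals of Acta2 in these steps ran from -0.94 at the lowest to 0.89 at the highest.

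Signals of other tissues moved beside those of Rgs5 and Pdgfrb. The summed signal of 8 markers of mesonephros and nephric duct lay between 5572 and 6922 on the gd11 arrays and between 4871 and 5223 on those of gd12. It lay between 1359 and 2365 at gd14, between 2861 and 4354 at gd16, between 1124 and 1978 at gd18 and between 765 and 1481 at pnd2. For 14 endothelial markers the sum was between 6572 and 9082 at gd11, 6779.8 and 8269 at gd12, and 3676 and 6284 at gd14. It was then between 5878 and 6894 at gd16, 5372 and 7682 at gd18, and 3708 and 5937 at pnd2. Both sums were thus higher on every gd12 array than on any gd14 array, as Rgs5 was, and all markers of both lists rose above 116.05 on at least 1 array. Between gd12 and gd14, 5 of 13 tested endothelial genes and 4 of 8 mesonephric genes were called lower and none higher, beside 7.05% of all tested probe sets called lower and 9.42% higher. Of the 8 mesonephric genes, 5 reached the threshold at gd11 or gd12 alone, which favours falls. The same held for 1 of the 13 endothelial genes, Pecam1, which reached it at gd12 alone. The part of these tissues in the falls of Rgs5 and Pdgfrb was not tested.

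The 3 gd11 arrays differed more among themselves than those of other stages for several members. Sample 16 gave the lowest and sample 19 the highest signal of the 3 for 6 of the 8 members, all but Myh11 and Des, an order found for 20.7% of all tested probe sets. Sample 19 was 4.50-fold above sample 16 for Acta2, 6.13-fold for Tagln, 6.72-fold for Actg2, 1.89-fold for Pdgfrb and 1.498-fold for Rgs5. On sample 19, 5 of the 8 members (Acta2, Tagln, Cnn1, Actg2 and Rgs5) had the highest signal of all 18 arrays, against 5.30% of the tested probe sets. The highest stage mean lay at gd11 for 6 members (Acta2, Tagln, Cnn1, Des, Actg2 and Rgs5), beside 19.6%. These shares cover tested probe sets, while the counts of members include Cnn1 and Des, which were not tested. Actg2 was tested only because of its gd11 signal. The counts are therefore not like the shares and are no result about the members as a group.

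Samples 16 and 18, but not 19, carry mesonephros in their labels. The summed mesonephric signal was 5572, 5720 and 6922 on samples 16, 18 and 19, so the sum was not lower on the array labelled as gonad. Single markers split. Wnt9b gave 216.13, 256.82 and 158.18 and Pax8 128.65, 117.35 and 96.9, both lowest on sample 19. In contrast, 4 of the 8 markers had their highest signal of all 18 arrays on sample 19. Summed fibroblast and stroma markers gave 23884, 35472 and 39202 in the same order, and the other contractile and actin-binding genes 33048, 45019 and 48629. Endothelial markers gave 6572, 9082 and 8643. Sample 16, which held the neuronal signal, was thus lowest in each of these sums, and how far the makeup of the dissected tissue moved the members was not tested.

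**Figure D3:**
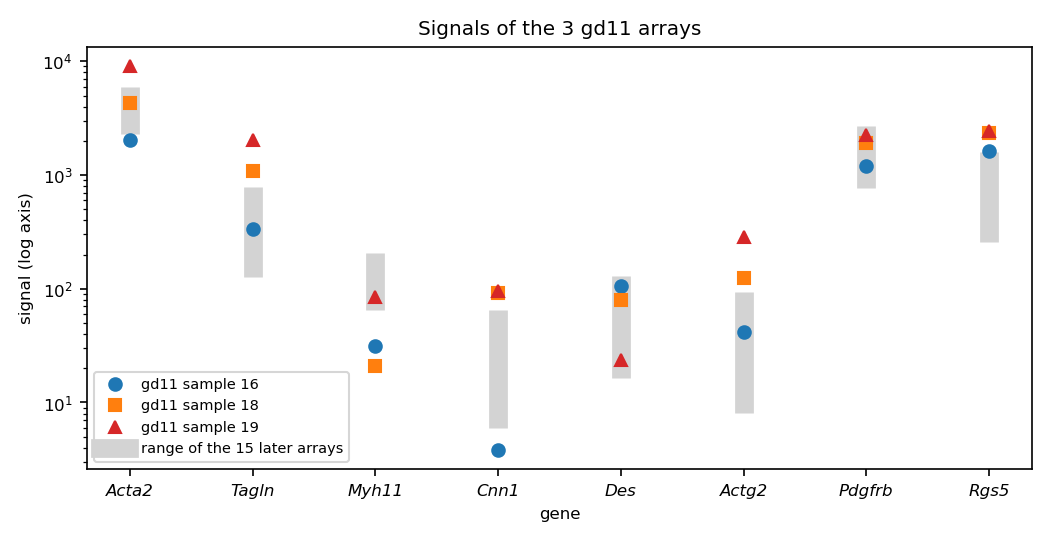
Signal (log axis) of the 8 members on gd11 samples 16 (circles), 18 (squares) and 19 (triangles), with grey bars from the lowest to the highest of the 15 arrays of later stages. Sample 19 lies above the grey bar for Acta2, Tagln, Cnn1, Actg2 and Rgs5, by a signal of 9055 against 5956 for Acta2.

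Across the 18 arrays some members varied together. Pearson's r of the log2 signals was 0.84 between Cnn1 and Actg2, 0.78 between Actg2 and Rgs5 and 0.76 between Acta2 and Tagln. The last was 0.64 without gd11 sample 19 and 0.80 over the 15 arrays after gd11. Myh11 ran against Rgs5, at -0.62, and this became -0.32 over those 15 arrays. The points of each pair share their arrays and, in threes, their stages, and the values describe the 28 pairs with no test.

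The genes whose log2 signals were most like those of a member were searched over 18 arrays and 12560 other genes. For Rgs5 they were Angpt1 (r = 0.93), the angiopoietin that mural cells send to the endothelium, Vwf (0.93), the von Willebrand factor of endothelial cells, and Pa2g4 (0.92). For Pdgfrb they were Adamts1 (0.84), Nr2f2 (0.83) and Tshz3 (0.83), and for Actg2 they were Prdm6 (0.87), Vwf (0.87) and Myh9 (0.87). Acta2 was most like Fstl1 (0.83), Cryab (0.79) and Iigp1 (0.75), and Tagln most like Tmem119 (0.82), Elovl5 (0.79) and Ntrk3 (0.79). The nearest to Myh11 were Dhtkd1 (0.82), Nxf3 (0.81) and Inpp1 (0.78), to Cnn1 Col25a1 (0.83), Prdm6 (0.79) and Fam222b (0.79), and to Des Ccdc163 (0.74), Galk2 (0.68) and Pgam5 (0.67). Among so many genes, the highest values are picked from a wide spread and carry no test.

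Beyond the members, a list of 20 further pericyte and mural genes on the array had 15 tested, of which 11 were called by the F test, beside 62.8% of all tested probe sets. Between gd12 and gd14, 3 fell and none rose, beside 7.05% and 9.42% of all: Angpt1, Tbx18, a transcription factor of mural and mesonephric mesenchyme, and S1pr3, a receptor for sphingosine-1-phosphate, which is named here after its values were seen. The median change of the list was -0.39, against -0.04 over all tested probe sets. Angpt1 gave 1026, 1188 and 1302 at gd11, 839.4, 166.2 and 478 at gd12 and 67.21, 173.4 and 171.2 at gd14, and its pnd2 arrays gave 297.4, 378.9 and 172.1. Its gd12 and gd14 arrays overlapped, and it fell by 1.48 ± 0.40 (adjusted p = 0.0169). Tbx18 gave 741.8, 1493 and 2414 at gd11, 762.3, 309.9 and 663.1 at gd12 and 72.14, 104.9 and 60.39 at gd14, with no overlap between the last 2 stages, and fell by 2.40 ± 0.39 (0.000278).

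From gd11 to pnd2 the pericyte list split, with 4 genes higher and 7 lower and a median of -0.64, against 0.01 over all tested probe sets, of which 22.4% were called higher and 19.5% lower. Higher were Gja4, which encodes connexin 37 (1.90 ± 0.27, limma, adjusted p = 1.78e-05), and Heyl, a target of Notch. Abcc9 and Kcnj8, which form the potassium channel of pericytes, were higher too. Which cells of the ovary gave these signals was not tested. Gja4 gave 246.2, 361.6 and 579.8 at gd11 and 1829.8, 1512 and 1182 at pnd2. Lower were Angpt1 (-1.99 ± 0.40), Tbx18 (-4.69 ± 0.39), Rgs4 (-1.84 ± 0.70), Notch3, Vtn, Ebf1 and S1pr3. Vtn reached the threshold at gd11 alone and Tbx18 and Rgs4 at gd11 and gd12 alone, so that falls of these 3 from those stages were favoured by the threshold. Of the genes above, Heyl, Abcc9, Kcnj8, Notch3, Vtn, Ebf1 and S1pr3 are named after their values were seen. Without gd11 sample 16 the count of lower genes was 4 in place of 7. Rgs4, a close relative of Rgs5, gave 1128 on that sample and 101.7 and 183.2 on gd11 samples 18 and 19.

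Among 21 other contractile and actin-binding genes on the array, 18 were tested and 12 called by the F test, close to the 62.8% of all probe sets. From gd11 to pnd2, 5 rose and 5 fell, beside 22.4% and 19.5% of all, with a median of -0.28. Mylk, the kinase that switches on smooth muscle myosin, rose from a mean of 1159 ± 501 (SD, n = 3) to 4581 ± 748 (2.05 ± 0.30, adjusted p = 1.93e-05). Nexn, which encodes the actin-binding protein nexilin, gave 205.5, 272.1 and 306.1 at gd11 and 2113, 1826 and 2028 at pnd2, without overlap (2.80 ± 0.20, 3.3e-09). Pdlim3 lay lowest at gd14, with 9.88, 18.44 and 14.43, and reached 1084, 1178 and 806 at pnd2 (2.71 ± 0.40 from gd11 to pnd2, 2.72e-05). Itga8, an integrin of contractile mesenchyme, fell from 5151 ± 1145 at gd12 to 820.3 ± 214 at pnd2 (-2.61 ± 0.25, 2.45e-07). Without gd11 sample 16 the genes called lower between gd11 and pnd2 numbered 8 in place of 5. Mylk was also called higher at gd16 than at gd14 (0.90 ± 0.30, 0.0407).

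**Figure D4:**
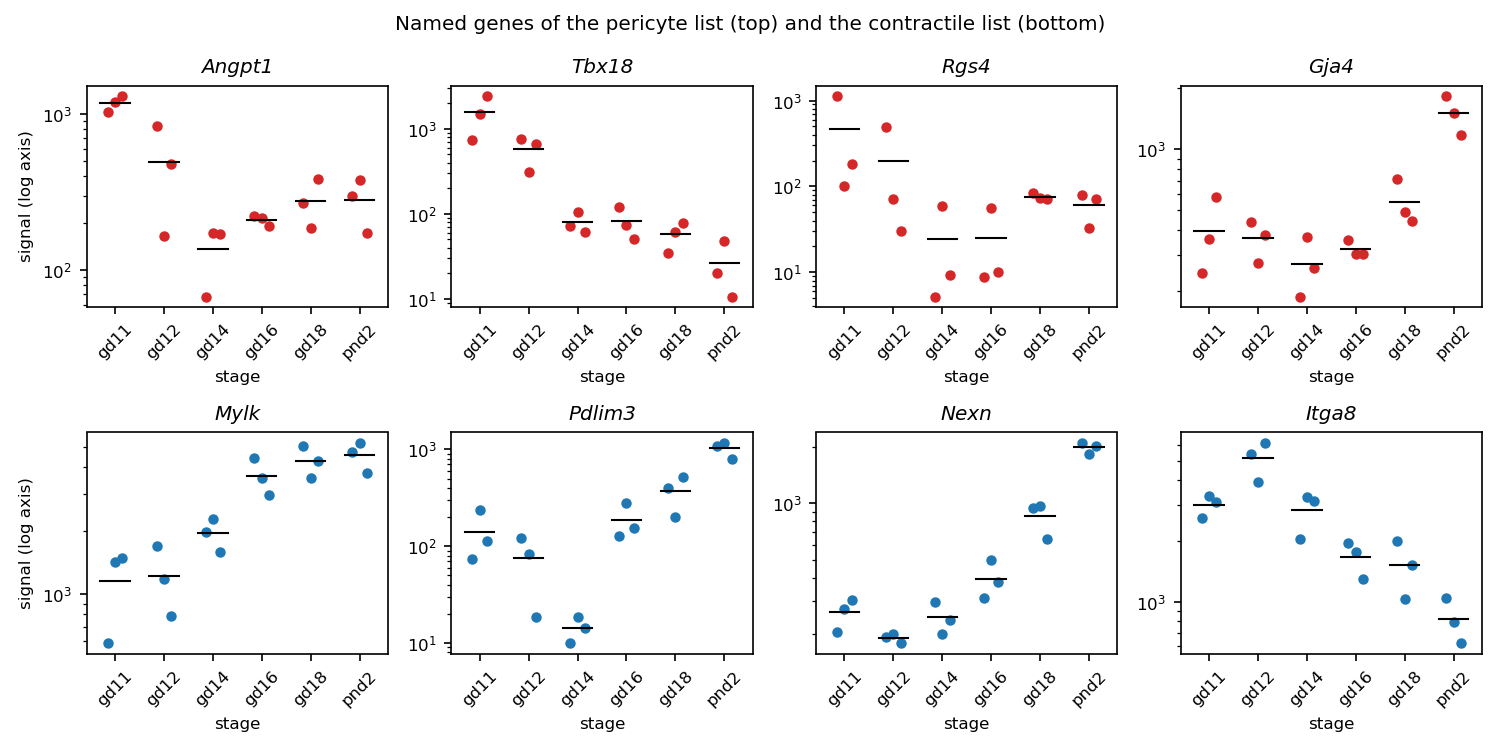
Signal (log axis) by stage of 4 named genes of the pericyte and mural list (top, red) and 4 of the contractile and actin-binding list (bottom, blue); points are arrays and black lines means of 3. Angpt1, Tbx18 and Itga8 end below their gd11 level and Gja4, Mylk, Pdlim3 and Nexn above it, with 1826 to 2113 for Nexn at pnd2.

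Of 12 regulators around SRF and myocardin, 11 were tested and 7 called by the F test, close to the 62.8% of all probe sets. Between gd11 and pnd2, 3 were higher and 2 lower, beside 22.4% and 19.5%. Higher were Smad3, which carries the signal of transforming growth factor beta (1.25 ± 0.14, adjusted p = 9.69e-07), Fhl2 (0.95 ± 0.24, 0.00349) and Klf4, a repressor of contractile genes (0.77 ± 0.27, 0.0274). Lower were Mef2c (-1.38 ± 0.27, 0.000364) and Srf itself (-0.62 ± 0.17, 0.00735). Srf fell between gd12 and gd14 (-0.70 ± 0.17, 0.00879), with 1055, 1027 and 1256 at gd12 and 638.2, 726.8 and 652.5 at gd14. Myocd, which encodes myocardin, ranged from 106.4 to 351 over the 18 arrays and was not called by the F test (0.527). Srf and Myocd are named after their values were seen.

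The PDGF family, besides Pdgfrb, held 5 genes, all tested, and 2 were called by the F test, beside 62.8% of all probe sets. Pdgfb, the ligand of Pdgfrb from endothelial cells, rose from 128.3 ± 34.8 at gd11 to 286.8 ± 30.3 at pnd2 (1.01 ± 0.19, adjusted p = 0.000328). Pdgfc, a ligand of the alpha receptor, fell from 5751 ± 1566 to 2252 ± 861 (-1.37 ± 0.28, 0.000652), and this fall lay between gd12 and gd14 in part (-0.96 ± 0.28, 0.0236). Over the same span Pdgfrb itself changed by -0.70 ± 0.30, which was not called (0.0731), but passed without gd11 sample 16 (-0.96, 0.0240) or gd16 sample 9 (-0.70, 0.0414).

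Close paralogs of the members were taken for comparison, since they belong to many cell types. All 16 were tested and 14 were called by the F test, beside 62.8% of all probe sets, and from gd11 to pnd2, 2 were higher and 8 lower, beside 22.4% and 19.5%. Actc1, the heart actin, gave a mean of 1114 at gd11, 249.2 at gd12 and 91.69 at pnd2 (-3.60 ± 0.50, adjusted p = 1.17e-05). Acta1, the skeletal actin, was called higher at gd14 than at gd12 (0.95 ± 0.31, 0.0401) and lower at gd16 than at gd14 (-1.85 ± 0.31, 0.000477). Tagln3, the neuronal relative of transgelin, had 977.9 ± 1278 at gd11 and 16.05 ± 12.0 at pnd2, with an SD at gd11 above its mean, and since it reached the threshold at gd11 alone its call lower is no independent result. Synm, which encodes the partner of desmin, rose from 97.26 to 445.8 (2.02 ± 0.32, 5.33e-05), while desmin itself was not tested. Actc1 reached the threshold at gd11, gd12 and gd14 alone, Acta1 at gd11 and gd14, and Synm at gd16, gd18 and pnd2. The threshold thus favoured the changes given for these genes, and their calls are not independent of it.

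Markers of other cell types were read as counts of genes called by the F test, beside 62.8% of all tested probe sets. These were 9 of 13 endothelial genes, 7 of 8 mesonephric, 6 of 10 fibroblast and stroma, 4 of 7 skeletal and heart muscle, 6 of 7 neuronal, 2 of 3 steroid-producing and all 6 ovary and germ cell identity genes tested. Of the genes tested, 4 of 7 neuronal and 5 of 8 mesonephric reached the threshold at no stage but gd11 and gd12. Ckm, Myh3 and Tnnt3 of the muscle list reached it at 1 stage each. So did Pecam1 of the endothelial list (gd12), Cyp17a1 of the steroid-producing list (gd16) and Pax8 of the mesonephric list (pnd2). Such genes had to vary, so these counts are not independent of the threshold. The fibroblast and stroma sum rose from 23884 to 39202 at gd11 to 49289 to 64979 at pnd2, where Acta2 and Tagln did not exceed gd11. Skeletal and heart muscle markers summed to at most 2844 on any ovary array. Of these 15 genes, 5 stayed below 116.05 on all 18 arrays, among them Myod1 and Myog, which define the skeletal lineage. The others rose above it on some array, and Tnnt1 had a mean above it at all 6 stages.

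The array of whole animals at pnd 0.5 shows the members in a body with gut, vessels and striated muscle. It gave 17530.0 for Acta2, 2762 for Tagln, 871.2 for Myh11, 449.9 for Cnn1, 1162 for Des and 2547 for Actg2, each above all 18 ovary arrays. Against the mean of the pnd2 ovary arrays Acta2 was 4.10-fold and Tagln 7.10-fold higher. The pnd2 means of the other 4 lay below 116.05, and against that threshold Myh11 was at least 7.51-fold, Cnn1 at least 3.88-fold, Des at least 10.01-fold and Actg2 at least 21.9-fold higher. Pdgfrb, at 1476, and Rgs5, at 1708, were 1.39-fold and 1.87-fold above the pnd2 mean and fell inside the range of the ovary arrays. A signal above all 18 ovary arrays was found for 13.9% of tested probe sets.

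Skeletal and heart muscle markers summed to 126490.1 on that array, and desmin is a gene of all muscle types, so the ratio for Des cannot be assigned to smooth muscle. This reference held both sexes, had no replicate and was younger than the pnd2 ovaries, and no test was made. Its Gapdh ratio of 3' to 5' probes was 3.00, against 5.07 to 5.41 on the pnd2 arrays, and the part of this difference was not tested. The probe sets of Cnn1, Des and Actg2, which were low in the ovary, thus gave signals of 449.9 and above in another tissue on the same array type. Second probe sets did not all follow: 1426732_at for Des gave 60.03 on the reference and 1418122_at for Myh11 gave 5.65. For Pdgfrb the direction differed between probe sets: 1417148_at gave 85.8 on the reference and 138.62 to 158.21 on the pnd2 arrays.

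**Figure D5:**
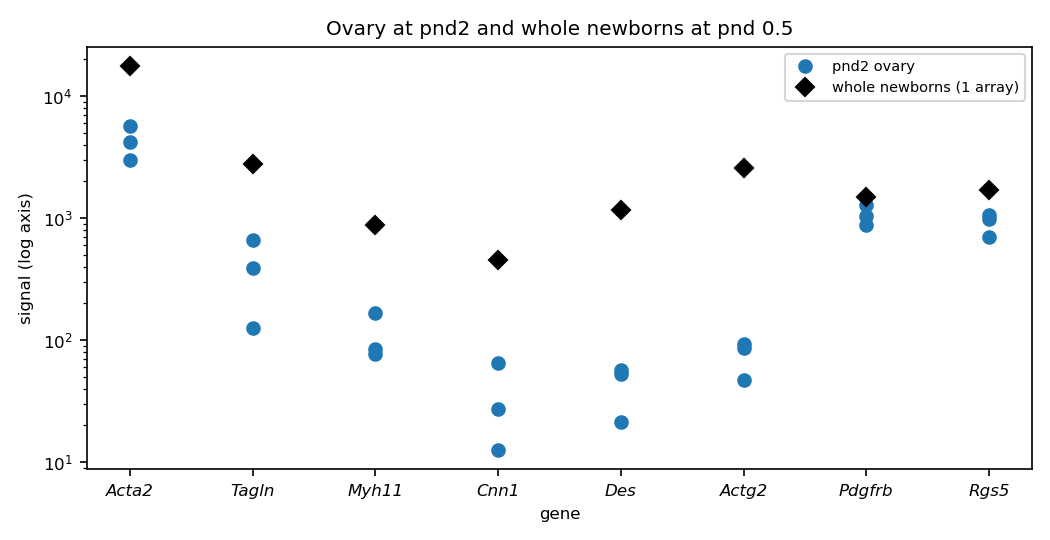
Signal (log axis) of the 8 members on the 3 pnd2 ovary arrays (circles) and the single array of whole animals at pnd 0.5 (diamonds). By the main probe sets shown, the diamond is above all pnd2 circles for each member, at 1476 against at most 1279.8 for Pdgfrb and 2547 against at most 93.31 for Actg2.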

How the data were processed

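RNA of 18 ovary samples and 1 reference was amplified in 2 rounds and hybridized to Affymetrix Mouse430_2 arrays, per the labels. The authors deposited signal intensities from GCOS, which the submitters' processing notes name; its version is not given in the sources used here. Each array's 2%-trimmed mean was 500. Of 45101 probe sets, 34945 had 1 gene symbol, 932 several and 9160 none, and 64 were controls. Signals were taken as log2(signal + 31), 31 being the 25th percentile, which understates changes of low genes. Stages were compared with limma 3.58.1 (R 4.3.3, with version 1.17.8 of data.table): 1 term per stage, mean-variance trend, 12 residual degrees of freedom, two-sided, Benjamini-Hochberg over 26431 probe sets; a procedure tested on simulated data. The series text makes each array a separate animal, the labels make early samples pools; p-values measure the spread between these arrays. The members and gene lists were chosen with earlier results of these data known. Named list genes were up to 4 per pathway list with the largest range among those called by the F test; for likeness, the 3 genes of highest r. Alternatives changed the pseudocount, scaling, filter, trend, weights, arrays or probe set rule. The number of arrays limits the precision.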

Additional observations from a re-analysis of the deposited data

How the results depend on the processing

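The changes of Rgs5 from gd12 to gd14, from gd11 to pnd2 and from gd14 to pnd2 were called under all 31 alternatives, with the same direction. The last of these comparisons was picked for the low gd14 signal and stays a description. Taken singly, none of the other probe sets of Rgs5 was called from gd11 to pnd2 or from gd14 to pnd2. The F test call of Rgs5 was kept in 29 alternatives and lost in none, and that of Myh11 was kept in 24 and lost in 3. The Pdgfrb call from gd12 to pnd2 was kept in 28 of 31. The calls of Myh11 between stages and the F test call of Actg2 were near the threshold. The number of members called from gd11 to gd12 was 1; it was 0 with a pseudocount of 116, quantile normalization, no filter, a filter at 507.26, gd11 samples 18 and 19 averaged, gd11 sample 19 alone, probe sets of a gene averaged, or only the arrays compared, 2 with median scaling and 3 with array quality weights. From gd12 to gd14 it was 1, and 2 with the filter at 507.26, array quality weights, gd11 sample 19 alone, the mean of probe sets or only the arrays compared. From gd11 to pnd2 it was 2, then 4 with median scaling, array quality weights or gd11 sample 19 alone, and 1 with no filter, the mean of probe sets or a threshold of 2-fold. The F test called 3, and 5 with median scaling, array quality weights or gd11 sample 19 alone. On leaving out 1 array the counts ran from 0 to 2 (gd11 to gd12), 1 to 2 (gd12 to gd14), 1 to 4 (gd11 to pnd2), 0 to 1 (gd12 to pnd2) and 1 to 5 (F test). With gd11 sample 19 alone, whose spread was then assumed to be that of the other stages, Acta2 (-1.12, adjusted p = 0.0215), Tagln (-2.54, 0.0093) and Actg2 (-1.59, 0.0271) passed from gd11 to pnd2 and Myh11 did not. The cause was not tested. Median scaling shifted the median change of all probe sets by -0.11 from gd11 to gd12, -0.17 from gd14 to gd16 and -0.14 from gd11 to pnd2. No paired analysis was possible because the stages share no replicate numbers. Of 204 list counts, 12 moved by over 1.5 times without gd11 sample 16, 10 without gd11 sample 19 and 14 without gd16 sample 7, alternatives chosen after the data were seen. Signals of Cnn1, Des, Actg2 and Myh11 near or under 116.05 limit what can be said of these genes.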
